A study of Mus musculus with 4 samples.

Results

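The genes described here encode the machinery of fatty acid oxidation in mitochondria and peroxisomes. They were taken by symbol from a list of 30, and all 30 stood among the 55487 genes of the table. By the compartment of their products, 5 belong to the carnitine shuttle, 17 to mitochondrial beta-oxidation and 7 to peroxisomal oxidation, and the remaining gene, Ppara, encodes their transcriptional regulator. Crat and Eci2 have products in both organelles and the product of Acot1 is cytosolic, so these assignments follow the list. A filter on low values, which kept genes whose deposited log2 values averaged 3 or more, was passed by 29 of the 30 genes and by 16871 genes in all. The exception was Cpt1b, with 2, 0, 0 and 1 reads.

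The RNA was described as that of gonadal white fat adipocytes of male mice on a standard diet. CKO mice were compared with littermate controls labelled WT, with 2 libraries per group. The labels give neither the deleted allele, the Cre driver, the strain nor the age, and do not say whether a library came from a single animal or from pooled tissue. The series title names BLIMP1, a transcription factor whose gene is Prdm1, in connection with macrophages, obesity and atherosclerosis. All values below are reads divided by a size factor for each library (scaled reads), in the order CKO replicates 1 and 2, then WT replicates 1 and 2. Differences are CKO minus WT on the log2(scaled reads + 1) scale. They compare means of log2 values and so are not the log2 ratios of the mean scaled reads given for some genes.

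Fatty acids are oxidised by shortening of their CoA esters in a repeating cycle of dehydrogenation, hydration, a further dehydrogenation and thiolytic cleavage. Long chains enter mitochondria as carnitine esters, whereas peroxisomes import CoA esters through ABCD transporters and handle very long and branched chains. In white adipocytes, which store and release fatty acids, the pathway is less prominent than in brown fat, liver or muscle. PPAR alpha, a nuclear receptor activated by fatty acids, drives many of these genes in liver and brown fat, while PPAR gamma binds similar elements in adipocytes.

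Libraries held 24152081 to 26742547 reads. Prdm1 had 152, 350, 534 and 1193 scaled reads, a log2 change of -1.79 (SE 0.59). Both CKO libraries were below both WT libraries, a pattern of 26.8% of all genes. No label says which part of the gene was deleted, so this level does not check the labels. All 16 adipocyte identity markers had reads in every library. Adipoq, which encodes adiponectin, had 71564, 39344, 46130 and 7950 scaled reads. Summed over the 16 genes, scaled reads were 1658970, 1021820, 996674 and 445428. WT replicate 2 stood apart. Adgre1, which encodes the macrophage protein F4/80, had 33520 scaled reads in it against 1386 to 8381 elsewhere, and all 18 macrophage markers were highest there. Summed over these 18 genes, none of them at 0, scaled reads were 50176 and 139958 in CKO and 337481 and 1075960 in WT. In WT replicate 2 the macrophage sum was thus above the adipocyte sum, so that library was not of adipocytes alone. The groups differed too: all 18 were lower in CKO, with a median log2 change of -2.60. For 17 of them both CKO libraries were below both WT libraries. In limma 16 were lower at an unadjusted p under 0.05 (7.26% of all genes), and 0 passed after adjustment. Prdm1 rose over the libraries in the same order as the macrophage sums, and the part of macrophages in its level was not tested. Endothelial markers (7 genes) and red blood cell markers (5 genes) were highest in CKO replicate 2 and lowest in WT replicate 2 without exception. Their summed scaled reads were 66208, 96734, 57340 and 19947, and 18880, 30206, 9082 and 3256. In a bulk preparation, fewer cells of a type and less RNA per cell cannot be told apart.

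Most genes of fatty acid oxidation were slightly higher in the CKO libraries, but no member differed from WT beyond the spread between libraries. Of the 29 tested, 24 had a positive log2 change and 5 a negative one, with a median of 0.34, against 51.1% positive and a median of 0.015 over all genes tested. In limma with Benjamini-Hochberg adjustment over all 16871 genes, 0 members passed an adjusted p of 0.05, as did 0% of all genes. The smallest adjusted p of a member was 0.459. At an unadjusted p under 0.05 the members gave 0 calls as well, where 10.6% of all genes had one. Voom weights also gave 0 on both counts.

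The spread came largely from 2 libraries. Among the 29 tested members, 21 were lowest in WT replicate 2 and 21 were highest in CKO replicate 1, against 38.2% and 27% of all genes. WT replicate 2 was highest for 4 members and for 40% of all genes. CKO replicate 2 and WT replicate 1 lay close together: 19 members differed between them by less than 0.25 on the log2 scale, as did 44.4% of all genes. The groups did not overlap for 6 members. Acadvl, Hadhb and Ppara had the higher levels in CKO, a pattern of 23.9% of all genes, and Cpt1a, Acot1 and Acox3 the lower ones, a pattern of 26.8%. These counts depended on the libraries included. Without WT replicate 2 the direction split became 18 positive and 11 negative, with 5 members entirely higher in CKO (34.1% of all genes) and 6 entirely lower (35.2%). Without CKO replicate 1, 3 were entirely higher (34.2%) and 6 lower (35.3%). Leaving out CKO replicate 2 gave 22 entirely higher (38%) and 3 lower (38.2%), and leaving out WT replicate 1 gave 21 (43.1%) and 4 (43.3%). At an unadjusted p under 0.05 in limma, members gave 0 calls on leaving out CKO replicate 1 (1.98% of all genes), CKO replicate 2 (6.97%) or WT replicate 2 (5.54%). Without WT replicate 1 they gave 14, against 34.1% of all genes. None of these passed after adjustment, where 10.5% of all genes did. Each such fit assumes the lone library of a group to vary like the other group. The level of macrophage markers moved with these differences, and its part in them was not tested.

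**Figure D1:**
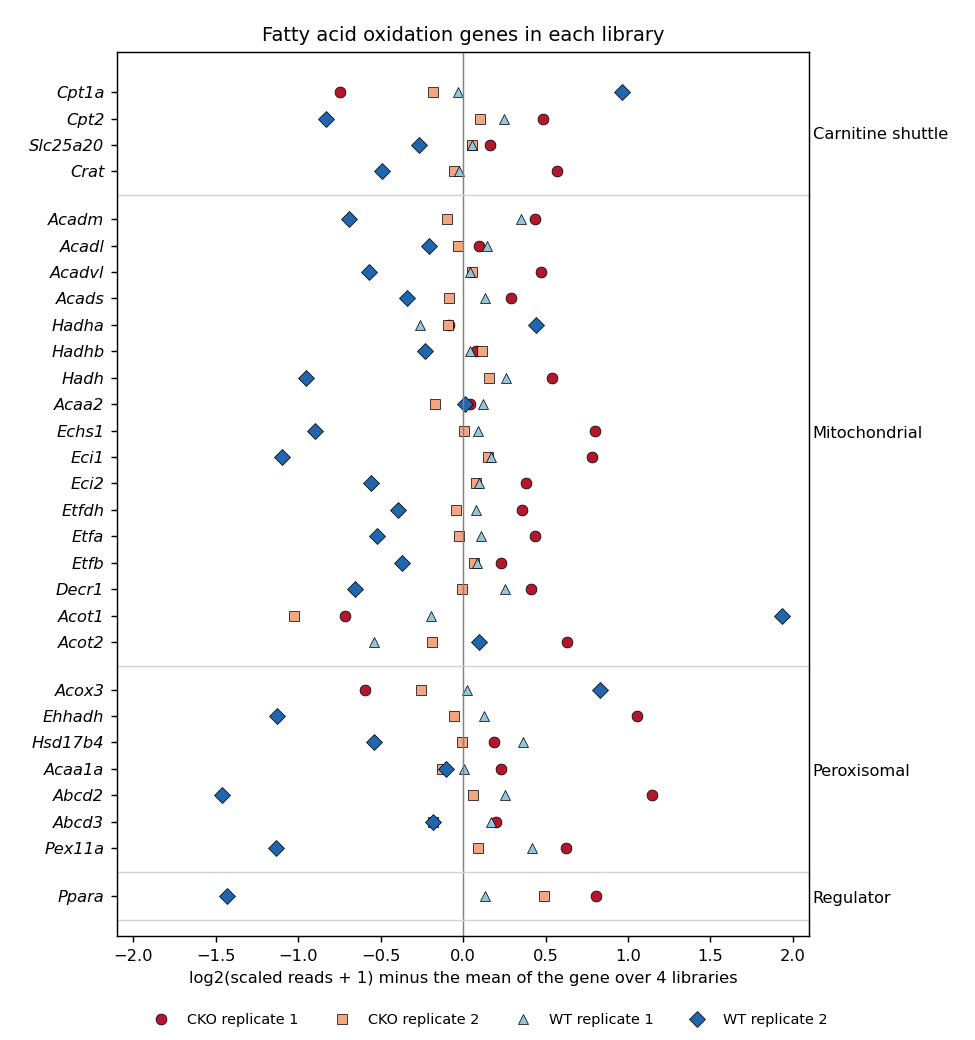
Each row is 1 of the 29 tested genes, and each point is a library's log2(scaled reads + 1) minus the gene's mean over the 4 libraries. WT replicate 2 (dark blue) is the lowest point for 21 genes, while for Cpt1a, Hadha, Acot1 and Acox3 it is the highest.

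Genes of the carnitine shuttle differed in direction. Cpt1a, the outer-membrane carnitine palmitoyltransferase that commits long-chain fatty acids to the mitochondrion, was lower in CKO, whereas Cpt2, its inner-membrane partner, was higher, and neither passed the test. Cpt1a had 2540, 3762, 4172 and 8324 scaled reads. Both CKO libraries were below both WT libraries, though CKO replicate 2 and WT replicate 1 were near each other. CKO averaged 3151 ± 864 and WT 6248 ± 2936 (SD, n = 2), which differ by -0.93 on the log2 scale (SE 0.44, limma adjusted p 0.459). Without WT replicate 2 the change was -0.43. Cpt2 ran the other way, with 4829, 3700, 4107 and 1939 scaled reads, so that the groups overlapped and WT replicate 2 was lowest. Its log2 change was 0.58 (SE 0.43), and 0.042 without WT replicate 2.

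The carnitine-acylcarnitine translocase gene Slc25a20, whose product exchanges acylcarnitine for free carnitine across the inner membrane, was steadier, at 2442, 2264, 2268 and 1815. Crat, the carnitine acetyltransferase that buffers acetyl-CoA, had 12118, 7856, 8022 and 5803. Their log2 changes were 0.21 (SE 0.24) and 0.52 (SE 0.37), with overlapping groups for both. Over the 4 tested genes of the shuttle the median change was 0.36, and it was 0.047 without WT replicate 2. Cpt1b, the muscle and brown fat isoform, was all but absent: only 3 reads were counted in the 4 libraries together. Of 8 markers of brown or beige fat, 4 were high enough to be tested, 2 of them higher in CKO and 2 lower. The brown fat list summed to 499, 452, 810 and 366 reads. Of 8 skeletal muscle markers 3 were tested, and these were higher in CKO (median 1.09). The muscle list summed to 913, 1987, 1096 and 329 reads. The part of either tissue in the members' levels was not tested.

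The ratio of Cpt1a to Cpt2 reads spread more widely than either gene. Such a ratio within a library does not depend on scaling. It was 0.526 in CKO replicate 1, 1.02 in CKO replicate 2, 1.02 in WT replicate 1 and 4.29 in WT replicate 2. The middle libraries were thus alike across the groups, and the extremes differed by 8.16-fold. Such pairs were chosen after their values had been seen and carry no test.

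Of the 17 genes listed under mitochondrial beta-oxidation, 14 were higher in CKO and 3 lower, with a median log2 change of 0.34 and 0 calls. Leaving out WT replicate 2 brought the median to 0.080. The acyl-CoA dehydrogenases, which carry out the first dehydrogenation for chains of different length, ranged from flat to modestly higher. Acadl, for long chains, had 7895, 7206, 8163 and 6381 scaled reads, a log2 change of 0.06 (SE 0.30). Acadvl, the membrane-bound very-long-chain enzyme, had 4386, 3275, 3247 and 2127. Its groups did not overlap, but by a margin of under 1% between CKO replicate 2 and WT replicate 1. The log2 change was 0.53 (SE 0.33, limma adjusted p 0.514). Acadm, for medium chains, had 12102, 8377, 11436 and 5543 scaled reads, and Acads, for short chains, 3263, 2505, 2924 and 2104. For Acadm and Acads the order of libraries was the same, with WT replicate 1 above CKO replicate 2 and WT replicate 2 lowest. Their log2 changes of 0.34 (SE 0.47) and 0.20 (SE 0.29) turned negative without WT replicate 2, at -0.18 and -0.032.

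Echs1, Hadh and Eci1, which act after the first dehydrogenation, were higher in CKO without passing the test. Echs1, the short-chain enoyl-CoA hydratase, had 11572, 6678, 7082 and 3563 scaled reads, which gives means of 9125 ± 3461 and 5323 ± 2488 (SD, n = 2). Hadh, which oxidises medium and short 3-hydroxyacyl-CoA, had 10717, 8227, 8844 and 3805. For Eci1, the isomerase that lets the cycle handle double bonds of unsaturated chains, the values were 5735, 3701, 3749 and 1560. These 3 genes shared 1 order: CKO replicate 1 was highest, WT replicate 1 slightly above CKO replicate 2, and WT replicate 2 lowest. Their log2 changes were 0.81 (SE 0.48), 0.69 (SE 0.49) and 0.93 (SE 0.51), and limma's adjusted p was 0.505, 0.545 and 0.480. Without WT replicate 2 the changes were 0.31, 0.086 and 0.30.

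Other genes for unsaturated chains followed the same order with smaller differences. Decr1, the dienoyl-CoA reductase, had 4022, 3004, 3600 and 1921 scaled reads, and Eci2 had 2556, 2074, 2099 and 1333. Log2 changes were 0.40 (SE 0.39) and 0.46 (SE 0.32). Acaa2, the medium-chain thiolase that closes the cycle, was the flattest member, at 6156, 5332, 6509 and 6032, with a log2 change of -0.13 (SE 0.27). It did not share the low level that most members had in WT replicate 2.

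Hadha and Hadhb encode the alpha and beta subunits of the mitochondrial trifunctional protein, which performs the last 3 steps for long chains. The gene models point away from each other on chromosome 5 of GRCm38. Hadha runs from 30118304 to 30155162 on the minus strand and Hadhb from 30155248 to 30184593 on the plus strand, which leaves 85 bases between them. That stretch, chr5:30155163-30155247, is shown 5′ to 3′ on the plus strand as the shared upstream region of both genes, from RefSeq's GRCm38.p6 promoter windows, with its 9 CpG pairs in capitals.
Hadha to Hadhb gap: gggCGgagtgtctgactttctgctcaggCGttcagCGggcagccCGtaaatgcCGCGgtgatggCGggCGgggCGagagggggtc

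Reads of the subunits parted in 1 library. Hadha had 4174, 4150, 3685 and 6016 scaled reads, highest in WT replicate 2, and Hadhb had 2076, 2134, 2024 and 1680, lowest there. The ratio of Hadha to Hadhb reads was 2.01, 1.94 and 1.82 in the first 3 libraries and 3.58 in WT replicate 2. Log2 changes were -0.18 (SE 0.33) for Hadha and 0.19 (SE 0.23) for Hadhb, and the Hadha value was 0.18 without WT replicate 2. Hadha overlaps Garem2 on the opposite strand, and whether reads were counted by strand is not stated. The same holds for Crat, Acadl, Acadvl, Echs1, Eci2, Etfdh, Acox3, Ehhadh, Acaa1a and Pex11a, which overlap other genes of the opposite strand.

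Electrons from the acyl-CoA dehydrogenases pass to the electron transfer flavoprotein, whose subunits are encoded by Etfa and Etfb, and then to its ubiquinone oxidoreductase, encoded by Etfdh. Here the subunits stayed in step. Etfa had 10723, 7793, 8546 and 5525 scaled reads and Etfb 1274, 1136, 1151 and 839. Their ratio lay between 6.59 and 8.42 in the 4 libraries. Etfdh had 4251, 3222, 3500 and 2514. WT replicate 2 was lowest and CKO replicate 1 highest for all 3 genes, with log2 changes of 0.41, 0.29 and 0.32 (SE 0.37, 0.27 and 0.30).

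The thioesterase genes Acot1 and Acot2, whose products release free fatty acids from CoA, lie on chromosome 12 with 15616 bases between them. Their longest coding transcripts in GENCODE M21 were identical at 81.9% of 1999 aligned bases and shared a run of 273 bases, so reads may be split between them and both levels are uncertain. Acot1, the cytosolic form, had 17, 15, 24 and 107 reads. CKO libraries were below WT libraries, with most of the distance in WT replicate 2: the log2 change was -1.74 (SE 0.82, limma adjusted p 0.459), and -0.68 without that library. Acot2, the matrix form, had 755, 428, 335 and 522 scaled reads, with overlapping groups and a log2 change of 0.44 (SE 0.41). The ratio of Acot1 to Acot2 reads was 0.0225, 0.0317, 0.0743 and 0.216, lower in both CKO libraries.

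**Figure D2:**
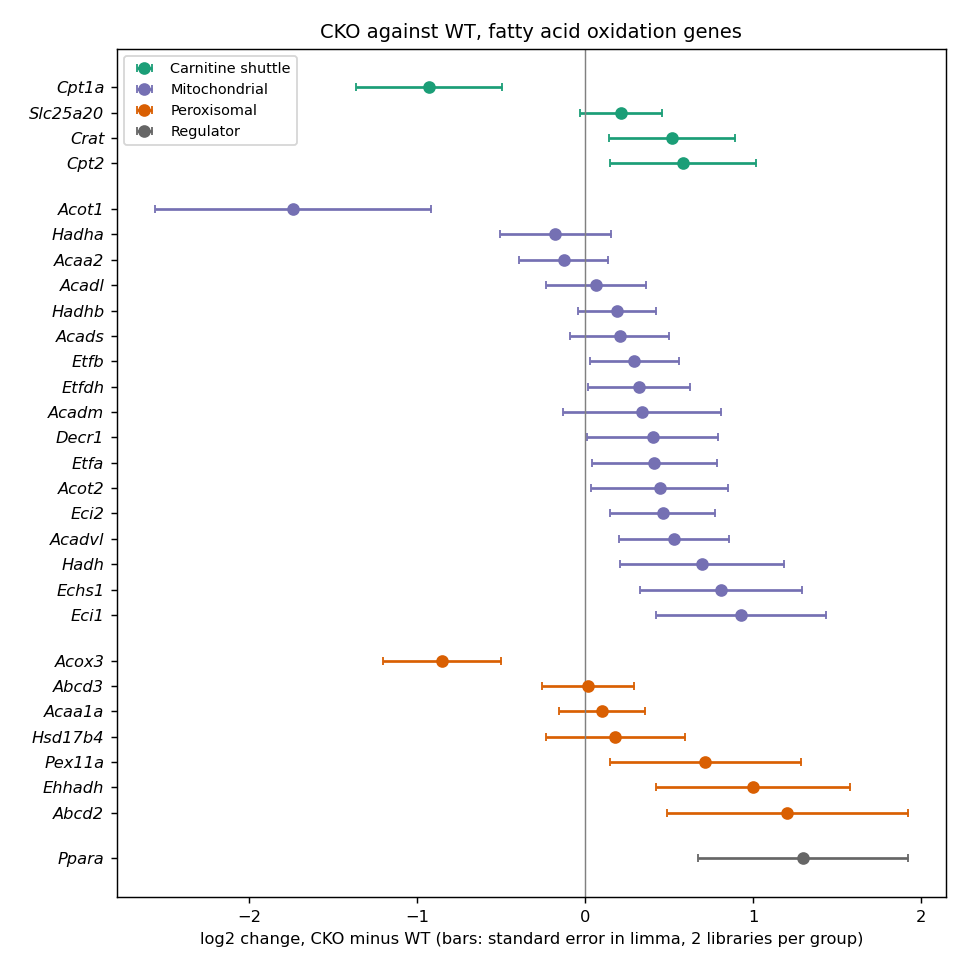
Points are limma's log2 change, CKO minus WT, for the 29 tested genes by compartment, and bars are the standard error (2 libraries per group). In all 24 values lie above 0 and 5 below, with Acot1, Cpt1a and Acox3 the lowest, and no gene passed the adjusted threshold.

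With all 4 libraries, peroxisomal genes had a smaller median difference than mitochondrial ones, but this depended on the libraries included. Of 7 genes, 6 were higher in CKO, with a median log2 change of 0.18 and values from -0.85 to 1.20, and 0 passed the test. The median was -0.061 without WT replicate 2 and 0.63 without WT replicate 1. Mitochondrial medians were 0.080 and 0.56 in these settings, so the order of the compartments reversed without WT replicate 1. Transport into the organelle was split. Abcd2, the ABC transporter for very long and polyunsaturated acyl-CoA that is abundant in adipocytes, had 24654, 11606, 13311 and 4046 scaled reads. Its groups overlapped, since WT replicate 1 lay above CKO replicate 2. Means were 18130 ± 9226 and 8678 ± 6551 (SD, n = 2), a log2 change of 1.20 (SE 0.72, limma adjusted p 0.503), which was 0.35 without WT replicate 2. Abcd3, the most general of these transporters, was even across the groups, at 2644, 2027, 2590 and 2027, with a log2 change of 0.015 (SE 0.27). The ratio of Abcd2 to Abcd3 reads was 9.33, 5.73, 5.14 and 2.00, so both CKO libraries stood above both WT libraries, by little in the middle.

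Acox3, an acyl-CoA oxidase for branched chains, had the smallest p of all members and was lower in CKO. Its scaled reads were 1196, 1508, 1832 and 3208, and the groups did not overlap. CKO averaged 1352 ± 221 and WT 2520 ± 973 (SD, n = 2), which differ by -0.85 on the log2 scale (SE 0.35). The limma p was 0.0613 before adjustment and 0.459 after, and the change was -0.45 without WT replicate 2.

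The bifunctional enzymes that follow the oxidases also differed from each other. Ehhadh, the L-bifunctional enzyme for straight-chain and dicarboxylic acids, had 2053, 950, 1078 and 451 scaled reads. WT replicate 1 was above CKO replicate 2, so the groups overlapped, and the log2 change was 1.00 (SE 0.58, limma adjusted p 0.494), or 0.37 without WT replicate 2. Hsd17b4, the D-bifunctional enzyme for branched and very long chains, had 10416, 9090, 11758 and 6273, a log2 change of 0.18 (SE 0.41). The ratio of Ehhadh to Hsd17b4 reads was 0.197, 0.105, 0.0917 and 0.0719, higher in both CKO libraries.

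Acaa1a, a peroxisomal thiolase, was steady at 3909, 3041, 3346 and 3092, with a log2 change of 0.10 (SE 0.26). Its longest coding transcript was identical to that of Acaa1b at 93% of 1636 aligned bases, so reads may be shared, and Acaa1a also overlaps Myd88 and Slc22a14 on the opposite strand. Pex11a, which promotes elongation and division of peroxisomes, had 1368, 945, 1186 and 404 scaled reads. Its log2 change of 0.72 (SE 0.57) rested on WT replicate 2 and was -0.061 without it.

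Abcd2, with the highest change of the peroxisomal genes, had no promoter window in the table used. Ehhadh, the next highest, and Acox3, the lowest, differed in opposite directions, so the 100 bases upstream of their RefSeq starts are shown, 5′ to 3′ on the strand of the gene, with CpG pairs in capitals. They lie at chr16:21787835-21787934 on the minus strand with 7 CpG pairs and at chr5:35582934-35583033 on the plus strand, also with 7. The Acox3 stretch overlaps an exon of the antisense transcript 4931431C16Rik, whose reads cannot be told apart from those of Acox3 without strand.
Ehhadh upstream: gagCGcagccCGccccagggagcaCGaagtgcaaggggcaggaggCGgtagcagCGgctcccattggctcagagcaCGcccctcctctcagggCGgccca
Acox3 upstream: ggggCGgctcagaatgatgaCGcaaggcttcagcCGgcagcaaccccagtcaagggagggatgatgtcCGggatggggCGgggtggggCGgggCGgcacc

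CpG pairs were more frequent in the members' promoter windows than in all windows. RefSeq's table held 25 windows for 24 of the 30 genes, each from 250 bases before to 50 after the start. The median was 17 CpG pairs and 60.7% G and C, against 7 pairs and 52.7% over all 32851 windows. Those windows were not limited to genes that passed the filter on low values, and a comparison with such genes alone was not made. Counts ran from 9 in Acadvl and Acot1 to 45 in a window of Abcd3.

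**Figure D3:**
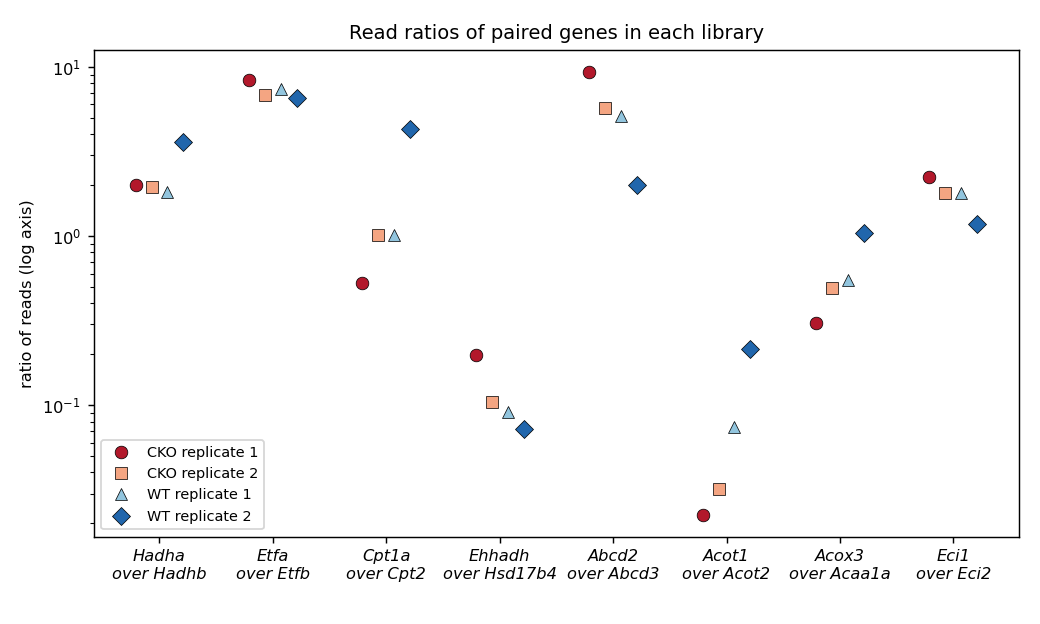
For 8 pairs of genes, points give reads of the first gene over reads of the second in each library, on a log axis. Etfa over Etfb is nearly level, while Cpt1a over Cpt2 runs from 0.526 in CKO replicate 1 to 4.29 in WT replicate 2.

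Ppara was higher in CKO at a low level. It had 172, 153, 104 and 34 reads, or 172, 139, 108 and 35.7 scaled, and the groups did not overlap. Means were 155 ± 23.8 and 71.9 ± 51.1 (SD, n = 2), a log2 change of 1.30 (SE 0.63, limma adjusted p 0.460), which was 0.51 without WT replicate 2. Its mean level per kilobase of exon, 29.6 scaled reads, was lower than that of 27 members and above only those of Acot1 and Cpt1b.

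PPAR alpha binds with RXR to a direct repeat of AGGTCA with 1 base between (DR1). The letters AGGTCANAGGTCA, searched on both strands, were found in 0 of the 25 member windows and in 0.0396% of all windows. The half-site extended for the estrogen-related receptors, TCAAGGTCA, shares AGGTCA with it and was found in 0 member windows and in 0.423% of all. With up to 2 mismatches, DR1 was found in 3 of the 25 member windows, from 3 genes, and in 3.86% of all windows. These matches are shown 5′ to 3′ with 8 flanking bases each, the matched letters in capitals, at chr7:140116484-140116512 (minus strand), chr9:55512300-55512328 (plus strand) and chr9:108662134-108662162 (plus strand). The Slc25a20 stretch overlaps an exon of that gene.
Echs1 DR1-like: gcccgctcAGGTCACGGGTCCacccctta
Etfa DR1-like: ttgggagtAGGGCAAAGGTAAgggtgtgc
Slc25a20 DR1-like: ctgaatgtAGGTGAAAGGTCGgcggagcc

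Levels per kilobase of exon were highest for mitochondrial enzymes. Exon length was that of all annotated exons of a gene together, so the ranking depends on annotation as well as on reads. It was 1835 bases for Etfa and 8286 for Echs1, which ranked 14 with 3563 to 11572 scaled reads. Means over the 4 libraries were highest for Etfa (4440 scaled reads per kilobase), Acaa2 (3963) and Acadl (3696), whose ranges over libraries overlapped. Hsd17b4 (2757) and Abcd2 (2254) led the peroxisomal genes, and Crat (1568) and Cpt2 (1524), which did not differ beyond their spread, the carnitine shuttle. By this measure the lowest tested members were Acox3 (168, over 11521 bases), Ppara (29.6) and Acot1 (10.7). For Abcd2 the level ran from 680 to 4146 and thus from above Hsd17b4 in CKO replicate 1 (3060) to below it in WT replicate 2 (1843). Summed over its 17 genes, the mitochondrial list had 30552, 23573, 26485 and 18239 scaled reads per kilobase in the 4 libraries. Peroxisomal genes summed to 9715, 6365, 7737 and 4088 and the shuttle to 5106, 3965, 4221 and 3352. CKO replicate 1 was highest and WT replicate 2 lowest in each case, with WT replicate 1 above CKO replicate 2.

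Set side by side, the compartments differed little in their medians. The peroxisomal median change minus the mitochondrial one was -0.16 on the log2 scale. After each gene was centred on its mean over libraries, peroxisomal minus mitochondrial medians were -0.15 and -0.030 in CKO and 0.072 and -0.15 in WT, so the groups overlapped. With Eci2 and Crat counted as peroxisomal and Acot1 left out, the difference had the opposite sign, at 0.12.

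Adipocyte markers varied in the same order as most members but more widely. For the 16 adipocyte identity genes, 14 were higher in CKO, with a median log2 change of 1.19 and 0 calls at an unadjusted p under 0.05 in limma. Medians of the centred log2 level were 0.96, 0.22, 0.31 and -1.66 in the 4 libraries. For the mitochondrial genes they were 0.38, -0.024, 0.097 and -0.40, and for the peroxisomal genes 0.23, -0.055, 0.17 and -0.54. The median adipocyte identity level itself was higher in CKO by 1.05, so levels taken relative to it were lower for most genes: for 89.3% of all genes tested, with a median of -1.03, and for 27 of 29 members, with a median of -0.71. The share of members was near that of all genes. The exceptions were Abcd2 (0.16) and Ppara (0.25). Again 1 library set this value: 27 members had their highest relative level in WT replicate 2, as did 90.3% of all genes, and the members' median relative change was 0.13 without it. Macrophage markers ran opposite to the adipocyte markers, with medians of -2.01, -0.75, 0.52 and 2.21. Like the members' relative levels, with centred medians of -0.41, -0.28, -0.49 and 1.16, they were highest in WT replicate 2. Their part in these relative levels was not tested.

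**Figure D4:**
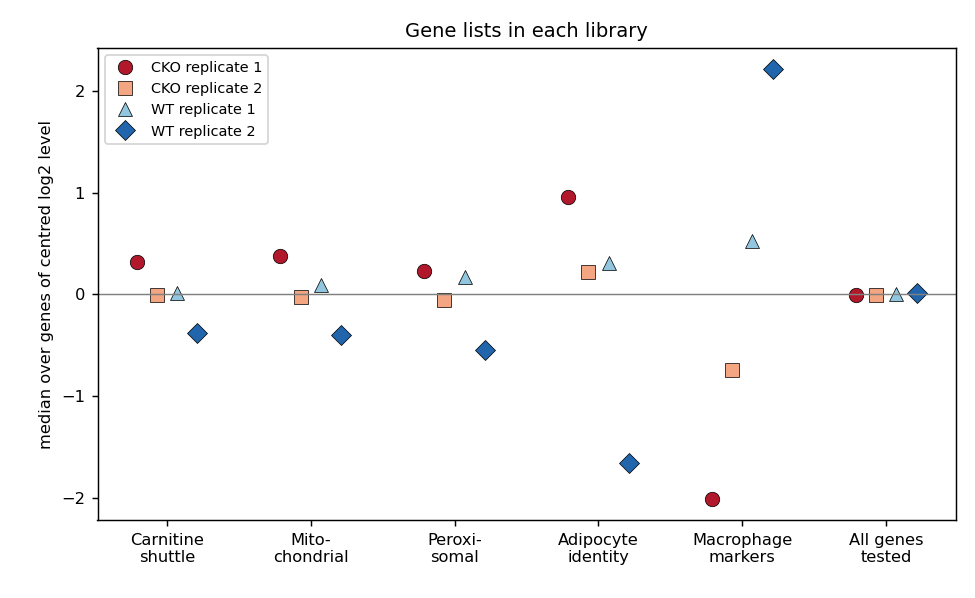
Points are the median, over the tested genes of a list, of the log2 level centred on each gene's mean over the 4 libraries. The carnitine shuttle, mitochondrial and peroxisomal lists lie in the order of the adipocyte list within a narrower range, and the macrophage list runs from -2.01 in CKO replicate 1 to 2.21 in WT replicate 2.

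Other genes of the pathway gave a similar picture, from lists chosen with results of these data known. Of 26 further genes tested for mitochondrial oxidation and acyl-CoA supply, 20 were higher in CKO (median 0.49). With limma, 3 of them had an unadjusted p under 0.05 and a positive change (3.35% of all genes) and 1 a negative change (7.26%). None passed after adjustment (adjusted p 0.459 each). Slc22a5, the plasma membrane carnitine transporter, had 1143, 933, 676 and 505 scaled reads, a log2 change of 0.82 (SE 0.28). Slc25a29, a mitochondrial carrier, had 333, 179, 116 and 54.7, a change of 1.60 (SE 0.56). Acacb, which makes the malonyl-CoA that inhibits CPT1, had 1928, 1344, 815 and 160, a change of 2.15 (SE 0.80). These 3 genes were named for their small p, and for each both CKO libraries were above both WT libraries. That pattern held for 10 of the 26 genes and 23.9% of all genes, and the reverse for 5 of the 26 and 26.8% of all genes. The gene lower at that level was Acss1, a mitochondrial acetyl-CoA synthetase, which falls outside the naming rule and was singled out after its value was seen, with a log2 change of -1.28.

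Of 24 further peroxisomal genes tested, 18 were higher (median 0.35). Acaa1b, the paralog of the peroxisomal Acaa1a, was counted both here and among the further mitochondrial genes above. Against 10.6% of all genes, 1 of the 24 had an unadjusted p under 0.05 in limma. This was the thioesterase gene Acot4, with 340, 147, 89.3 and 68.3 scaled reads and a log2 change of 1.50 (SE 0.53, limma adjusted p 0.459). Among the genes named from these further lists, Acacb, Acss1, Acot4, Eci3, Pex3, Pex5l and Ncor1 overlap genes of the opposite strand. Eci3, a further isomerase, had 391, 210, 194 and 38.9 and a change of 1.70 (SE 0.85).

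Among 16 peroxins, the proteins that build peroxisomes, 13 were higher (median 0.41). Pex3 and Pex10, a membrane assembly factor and a ubiquitin ligase of the import machinery, had log2 changes of 0.84 (SE 0.44) and 0.66 (SE 0.39). Pex5l, a relative of the import receptor expressed mainly in brain, had 3, 20, 164 and 53 reads and a change of -3.49 (SE 0.99, unadjusted p 0.0173, adjusted p 0.459 in limma). Of 22 tested genes around the PPARs, 17 were higher (median 0.77). The corepressor gene Ncor1 had 6970, 6774, 4736 and 3573 scaled reads, with a log2 change of 0.74 (SE 0.28) and an unadjusted p of 0.0475 in limma. Pex5l and Ncor1 were the only genes of their lists at an unadjusted p under 0.05, a level reached by 10.6% of all genes. Rxrg, a partner of the PPARs, and the corepressor gene Nrip1 were at 1.40 (SE 0.64) and 1.24 (SE 0.64), each with both CKO libraries above both WT libraries. That pattern held for 7 of the 22 genes and 23.9% of all genes, and the reverse for 2 of the 22 and 26.8% of all genes.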

How the data were processed

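The submitters' processing notes list STAR 2.7.5c, FastQC and the GRCm38.p6 assembly. The sources used here name neither the tool that counted reads nor its use of strand. Values were deposited under the name of log2 normalised counts. However, 2 to the power of each value minus 1 was whole within 0.01 for 100% of genes, with differing totals, so they are log2(reads + 1) unscaled between libraries. Reads were recovered, divided by median-ratio size factors (0.951 to 1.10), and taken to log2 with a pseudocount of 1, which understates changes of low genes. Group means of 16871 genes were compared by limma 3.58.1 (R 4.3.3) with moderated variances that followed a mean trend and two-sided p-values. The code was also run on simulated reads whose noise was independent between genes. In the data the markers of a cell type moved together, so that run does not show how the p-values behave here. The deposited unit is log2, so no count model was run. An exact permutation test of 2 against 2 libraries cannot go below 0.333. Nothing says that libraries are separate animals. The p-values therefore cover only the spread between these libraries, which may be technical. Replicate numbers follow record order.

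Of the identifiers, 99.3% matched GENCODE M21, which gave coordinates, exon lengths and overlaps. The members and all lists were chosen with earlier results of these data known. The naming rule covers all members, Prdm1, Adipoq, Adgre1 and the 3 genes of smallest p in each further list, of which 1 is not reported here. Acss1 was added after its value was seen. Alternatives were other scalings, filters, a pseudocount of 10, no trend, voom weights, another assignment of compartments, Adipoq alone as reference, and each library left out in turn. Markers of brown fat, skeletal muscle, liver, endothelium, fibroblasts, mesothelium, red cells and epididymis were also listed. Endothelial and red cell genes were higher in CKO for all 7 and all 5 (medians 1.20 and 2.17). Fibroblast genes were lower for 5 of 6 (median -0.61) and mesothelial genes for 3 of 5 (median -0.38). Brown fat, muscle, liver and epididymis had 4, 3, 1 and 0 tested genes.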

Additional observations from a re-analysis of the deposited data

How the results depend on the processing

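With each library left out in turn, the genes called over all genes ran from 0 to 1775, the latter without WT replicate 1 (837 higher, 938 lower), and the members at an unadjusted p under 0.05 from 0 to 14. No member passed the adjusted threshold in limma in any alternative. Members with both CKO libraries above both WT libraries numbered 3 in the setting reported, against 23.9% of all genes. They numbered 16 (25 of 29 positive) with deposited values left unscaled, against 33.5%, and 8 with scaling by total reads, against 28.0%. With a library left out they numbered 3 to 22, against 34.1% to 43.1%. Members below numbered 3 in the setting reported, against 26.8% of all genes, and 2 with unscaled values, against 17.5%. A minimum mean log2 value of 6 gave 2, against 28.5%. With a library left out there were 3 to 6, against 35.2% to 43.3%. Unscaled values moved the median of all genes from 0.015 to 0.15 and the genes at an unadjusted p under 0.05 from 566 higher and 1224 lower to 859 and 855; these were 122 and 212 without CKO replicate 1. Median changes with a library left out ran from 0.047 to 0.56 for the carnitine shuttle, from 0.080 to 0.60 for mitochondrial genes and from -0.061 to 0.63 for peroxisomal genes. Peroxisomal minus mitochondrial ran from -0.32 to 0.076, and was 0.12 with Eci2 and Crat counted as peroxisomal. The relative change to adipocyte genes ran from -1.54 to 0.13, and was -1.13 with Adipoq alone. Of 29 members, 19 kept their direction in all settings. The log2 change ran with a library left out from -0.18 to 0.86 for Acadm, -0.11 to 0.24 for Acadl, -0.032 to 0.44 for Acads, -0.53 to 0.18 for Hadha, -0.051 to 0.86 for Decr1, -0.27 to 0.63 for Hsd17b4, -0.081 to 0.28 for Acaa1a, -0.18 to 0.21 for Abcd3 and -0.061 to 1.49 for Pex11a. Acaa2 was at 0.0043 with unscaled values. The cause of these differences was not tested. No paired analysis was possible because replicate numbers follow record order and the labels pair no samples.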
